A study of Mus musculus with 11 samples.

Results

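The E proteins, their Id inhibitors and the related factors Tal1 and Lyl1 were followed across sorted mouse lymphoid progenitors as a set of 8 genes. The set was taken by name, and each gene was represented by the probe set that carried its symbol alone. All 8 genes had such a probe set, among 22180 genes measured, and none had a second one. C57BL/6 mice were given either PBS or CpG1826 (50 µg a dose), a synthetic DNA that triggers Toll-like receptor 9, every other day over 10 days. On day 10, bone marrow common lymphoid progenitors (CLPs) were sorted into a fraction with and a fraction without surface Ly-6D, a protein that appears on CLPs as they turn to the B lineage. The 11 arrays comprised 3 of Ly-6D- CLPs after PBS, 3 of Ly-6D- CLPs after CpG, 2 of Ly-6D+ CLPs after PBS and 3 of Ly-6D+ CLPs after CpG. The labels name 1 strain for all groups and do not say how replicates relate to animals, so the p values speak of the spread among samples that may be technical.

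E proteins are transcription factors of the basic helix-loop-helix (bHLH) family. They bind as dimers to a short DNA motif, the E-box, and drive lymphocyte development. Tcf3 encodes E12 and E47, which early B-cell development needs. Tcf12 encodes HEB and Tcf4 encodes E2-2, the factor required for plasmacytoid dendritic cells. Id proteins have the helix-loop-helix but lack the basic region that contacts DNA, so that an E protein paired with an Id protein does not bind. Tal1 and Lyl1 are bHLH partners of E proteins in stem cells and early progenitors. The ratio of E protein to Id protein is known to steer lymphoid progenitors between fates, and transcripts are what was measured here.

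Values are log2 expression after RMA, so that 1 unit is a 2-fold difference. They compare a gene between groups but do not rank genes against each other, since each probe set has its own sensitivity. Array medians lay between 3.85 and 3.96, and the number of arrays limits the precision. Signal over background is unknown. The CLP genes Dntt (11.90 to 12.34 over all arrays), Flt3 (10.36 to 10.87) and Il7r (9.05 to 10.85) were high. Genes of other cell types were mixed. The T-cell gene Cd3e (2.84 to 3.85) and the mature B-cell gene Ms4a1 (2.41 to 3.20) reached at most about the lowest array median, while Cd5 (5.91 to 7.05), Sdc1 (8.21 to 9.99) and the granulocyte genes S100a8 (12.49 to 12.71), S100a9 (11.51 to 11.85) and Camp (10.63 to 11.37) were above it in every array. Ly6d, the gene of the sorted protein, lay between 12.55 and 12.61 in Ly-6D+ arrays and between 7.47 and 8.50 in Ly-6D- arrays. In RNA from whole sorted fractions, fewer cells of a type and less RNA per cell cannot be told apart.

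The first question was how the genes differed between the populations. Averaged over both treatments, Id3 and Tcf4 were higher in Ly-6D+ CLPs and Tal1 was lower, and these 3 of 8 genes passed the test (limma adjusted p below 0.05 over all genes). Of all genes, 4.59% passed in this comparison. Id3 was 3.24-fold higher (log2 difference 1.70, SE 0.22, 95% interval 1.21 to 2.19, limma adjusted p = 0.00127). Tcf4 was 1.42-fold higher (0.51, SE 0.08, interval 0.34 to 0.67, adjusted p = 0.00333). Tal1 differed by -0.72 (SE 0.11, interval -0.96 to -0.48, adjusted p = 0.00306). All 3 calls held whichever array was left out, and for these 3 genes the ranges of the 2 populations stood apart, as for 4.11% of all genes. The panels of expression by gene show the separation of these 3 and the closer levels of the other 5.

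**Figure D1:**
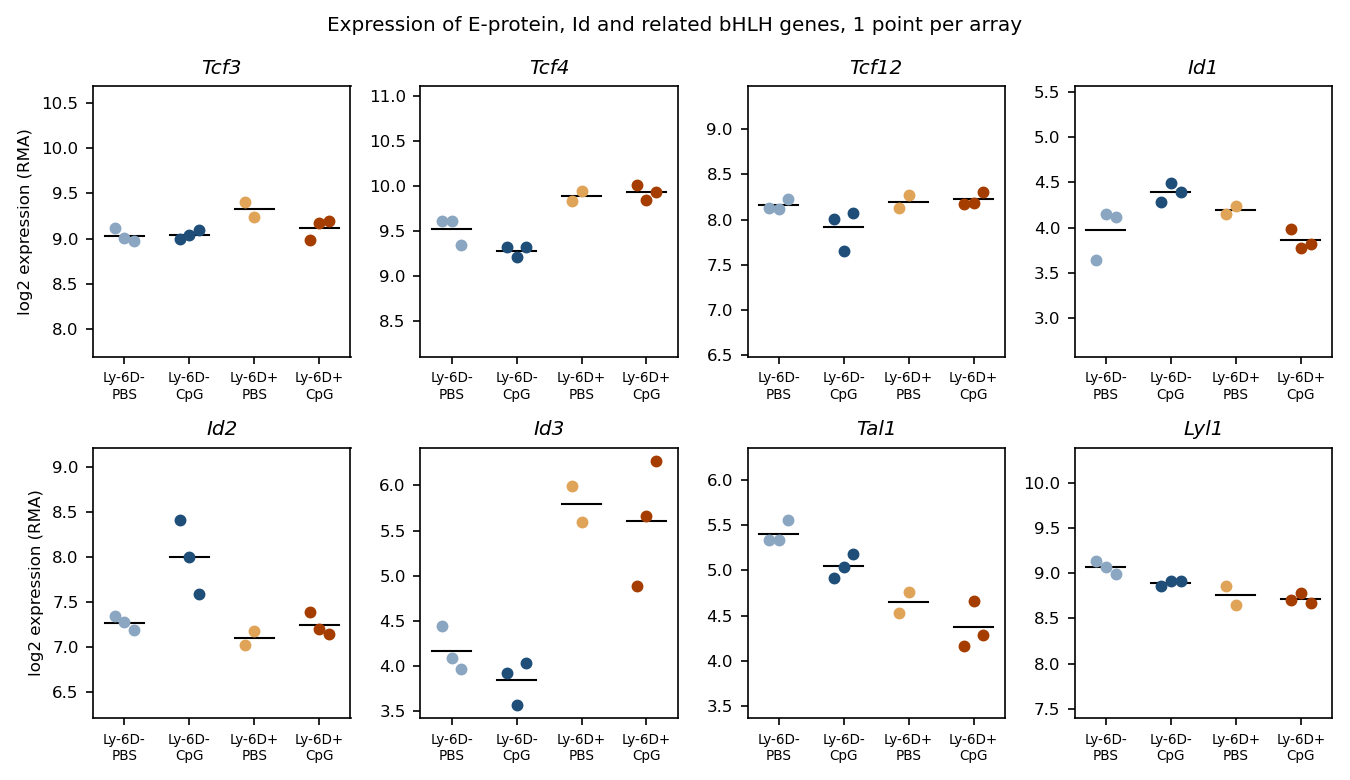
Expression of the 8 genes as log2 RMA values (y axis, 3 units in every panel) in the 4 groups (x axis); each point is 1 array and each line a group mean. Id3 lies between 4.88 and 6.27 in Ly-6D+ arrays and between 3.57 and 4.44 in Ly-6D- arrays, and Id2 is highest in the 3 Ly-6D- CpG arrays, at 7.59 to 8.41.

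Among the E proteins, Tcf4 showed the widest range over arrays (0.80 log2 units, against 0.65 for Tcf12 and 0.44 for Tcf3). Its level was 9.61, 9.62 and 9.35 in the Ly-6D- PBS arrays, and 9.32, 9.21 and 9.32 in the Ly-6D- CpG arrays. In Ly-6D+ CLPs it was 9.83 and 9.95 after PBS, and 10.01, 9.84 and 9.94 after CpG. The 5 Ly-6D+ arrays were thus all above the 6 Ly-6D- arrays, the 2 Ly-6D+ groups overlapped, and the Ly-6D- CpG arrays lay just below the Ly-6D- PBS arrays. The difference between populations was 0.37 after PBS (SE 0.11, interval 0.11 to 0.62, limma adjusted p = 0.176, or 0.0470 and past the test with a robust variance trend), which did not pass, and 0.64 after CpG (SE 0.10, interval 0.42 to 0.87, adjusted p = 0.00781), which did. It passed after CpG whichever array was left out. That these 2 differences are unequal was tested directly, and the test did not pass (log2 0.28, SE 0.15, adjusted p = 0.822).

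Tcf3 ranged from 8.97 to 9.41 over the 11 arrays. In Ly-6D+ CLPs its mean was 9.33 ± 0.12 (SD, n = 2) for PBS and 9.12 ± 0.12 (SD, n = 3) for CpG. In Ly-6D- CLPs it was 9.03 ± 0.08 (SD, n = 3) for PBS and 9.04 ± 0.05 (SD, n = 3) for CpG. The 3 lower groups overlapped, and the Ly-6D+ PBS arrays lay above them. The difference between populations after PBS was 0.29 (SE 0.11, interval 0.06 to 0.53, limma adjusted p = 0.268) and after CpG 0.08 (SE 0.10, interval -0.14 to 0.29, adjusted p = 0.820). Tcf12 ranged from 7.65 to 8.31, and its lowest array was Ly-6D- CpG replicate 2. The Ly-6D- CpG arrays were at 8.01, 7.65 and 8.08, below the other 3 groups, which had means from 8.16 to 8.22 and overlapped. The Tcf12 difference between populations was 0.04 after PBS (SE 0.13, interval -0.25 to 0.33, adjusted p = 0.955) and 0.31 after CpG (SE 0.12, interval 0.05 to 0.57, adjusted p = 0.283). Neither gene passed.

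Of the inhibitors, Id3 had the widest range of all 8 genes, 2.70 log2 units. It was at 4.44, 4.09 and 3.96 in Ly-6D- CLPs after PBS and at 3.92, 3.57 and 4.04 after CpG. In Ly-6D+ CLPs it was at 5.99 and 5.60 after PBS and at 4.88, 5.67 and 6.27 after CpG. The populations were apart under both treatments, and the 3 Ly-6D+ CpG arrays spread over more than 1 unit. Id3 was 3.10-fold higher in Ly-6D+ CLPs after PBS (log2 1.63, SE 0.33, limma adjusted p = 0.0324) and 3.40-fold higher after CpG (log2 1.76, SE 0.29, adjusted p = 0.0106). The Ly-6D- levels lay near the array medians and their distance from background is unknown, so each Id3 fold may be a lower bound, also where Id3 enters the balance. After PBS the call ended in 7 of 11 fits with 1 array left out. In Ly-6D+ cells these were CpG replicate 2 (adjusted p = 0.0517) and both PBS arrays (0.237 and 0.103). In Ly-6D- cells these were CpG replicate 1 (0.0537) and the 3 PBS arrays (0.0529, 0.0975 and 0.106). After CpG it ended without Ly-6D- CpG replicate 2 (0.0597) and when only the groups compared were fitted (0.0726).

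For Id2 and Id1 the differences after PBS were small. These differences between populations did not pass, -0.17 for Id2 (SE 0.19, interval -0.60 to 0.26, limma adjusted p = 0.831) and 0.23 for Id1 (SE 0.15, interval -0.12 to 0.57, adjusted p = 0.659). After CpG every Ly-6D+ array lay below every Ly-6D- array for both genes, and neither gene passed. The difference was -0.75 for Id2 (SE 0.17, interval -1.14 to -0.37, adjusted p = 0.0580) and -0.53 for Id1 (SE 0.14, interval -0.83 to -0.22, adjusted p = 0.0949). The Id2 difference was -0.96 and passed without Ly-6D- CpG replicate 3 (adjusted p = 0.00696). It also passed with the dimmest genes by mean level left out (0.0395), a robust variance trend (0.0228), array weights (0.0403), further quantile normalisation (0.0474) and the replicate number as a fixed (0.0375) or random block (0.0416). The Id1 difference of -0.53 passed (0.0272) once the first Ly-6D- PBS array was left out. After CpG, then, Id3 stood higher in Ly-6D+ CLPs and Id2 and Id1 stood lower, the latter pair without passing the test.

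The DNA just upstream of Id3 and Id2 is shown because these are the inhibitors with the widest ranges, and E-boxes are the sites where the encoded proteins' partners bind. RefSeq promoter sequences (GRCm38.p6) were matched by gene identifier for Tcf3, Tcf12, Id2, Id3, Tal1 and Lyl1, and the 250 bases before each annotated start were searched for CANNTG, which reads the same on both strands. Capitals mark each match. The Id3 window is chr4:136143572-136143821 on the plus strand and the Id2 window is chr12:25096093-25096342 on the minus strand.
Id3: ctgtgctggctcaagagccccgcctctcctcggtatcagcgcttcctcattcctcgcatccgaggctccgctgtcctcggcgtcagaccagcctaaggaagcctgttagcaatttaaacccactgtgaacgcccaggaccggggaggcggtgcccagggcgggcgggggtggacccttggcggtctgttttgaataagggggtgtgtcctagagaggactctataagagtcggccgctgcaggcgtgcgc
Id2: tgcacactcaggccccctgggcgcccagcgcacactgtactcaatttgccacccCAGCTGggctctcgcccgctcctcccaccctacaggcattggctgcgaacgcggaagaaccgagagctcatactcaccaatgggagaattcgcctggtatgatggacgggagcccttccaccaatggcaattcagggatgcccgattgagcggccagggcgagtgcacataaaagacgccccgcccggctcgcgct
The Id3 window had 0 matches, and the Id2 window had 1, CAGCTG, starting 196 bases before the start. Of all 32851 such windows, 66.2% held at least 1 CANNTG. Windows of Tcf3 (CACTTG, 54 bases before the start) and Lyl1 (CACCTG, 235 bases before) each had 1 match, 2 of the 3 Tcf12 windows had 1, and both Tal1 windows had 0. A match describes these letters only and is not a binding site.

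Of the stem and progenitor partners, Tal1 was lower in Ly-6D+ CLPs and Lyl1 did not pass the test. Tal1 was at 5.33, 5.33 and 5.56 in Ly-6D- CLPs after PBS and at 4.92, 5.04 and 5.18 after CpG. It was at 4.53 and 4.76 in Ly-6D+ CLPs after PBS and at 4.17, 4.67 and 4.28 after CpG. The order was Ly-6D- PBS, Ly-6D- CpG, Ly-6D+ PBS and Ly-6D+ CpG, and only the last 2 groups overlapped. Tal1 differed between populations by -0.76 after PBS (SE 0.16, limma adjusted p = 0.0388) and by -0.68 after CpG (SE 0.14, adjusted p = 0.0380). Both calls were near the threshold. Leaving out 1 array ended the call after PBS in 8 of 11 fits. Among Ly-6D+ arrays this held for CpG replicate 3 (adjusted p = 0.0531) and for PBS replicates 1 (0.270) and 2 (0.0955). Among Ly-6D- arrays it held for CpG replicates 1 (0.0526) and 2 (0.0643) and for PBS replicates 1, 2 and 3 (0.0758, 0.0804 and 0.119). The call after CpG ended in 9 of 11 fits and survived the loss of Ly-6D+ CpG replicate 2 or of PBS replicate 3 of the Ly-6D- cells. In Ly-6D+ cells the adjusted p was 0.135 and 0.121 without CpG replicates 1 and 3 and 0.0527 without either PBS array. In Ly-6D- cells it was 0.0688, 0.124 and 0.103 without CpG replicates 1, 2 and 3, and 0.0599 and 0.0594 without PBS replicates 1 and 2. Both calls also ended when only the groups compared were fitted (0.1003 and 0.128).

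Lyl1 held the same order of groups as Tal1 within a range of 0.49 log2 units, with 9.06 ± 0.07 (SD, n = 3) in the Ly-6D- PBS group at the top and 8.72 ± 0.06 (SD, n = 3) in the Ly-6D+ CpG group at the bottom. It was at 9.14, 9.06 and 8.99 in Ly-6D- arrays of PBS and at 8.86, 8.91 and 8.91 in those of CpG. In Ly-6D+ arrays it was at 8.86 and 8.65 with PBS and at 8.70, 8.78 and 8.67 with CpG. The Ly-6D- PBS arrays stood above all others, and the other 3 groups overlapped in turn. The difference between populations, averaged over treatments, was -0.24 (SE 0.07, interval -0.39 to -0.09, limma adjusted p = 0.0750) and did not pass, though it did with the dimmest genes left out (0.0408) or a robust variance trend (0.0168). Over the 11 arrays the correlation of Tal1 with Lyl1 was 0.836, and that of Tcf4 with Id3 was 0.864. These describe arrays that share the population difference.

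In all, 2 of 8 genes passed between the populations after PBS (Id3 higher, Tal1 lower), where 1.98% of all genes did. After CpG, 3 of 8 passed (Id3 and Tcf4 higher, Tal1 lower), where 2.14% did. The median difference of the 8 genes was 0.13 after PBS and -0.05 after CpG, against -0.01 and -0.0041 over all genes. Their arrays did not overlap for 6 of 8 genes after PBS (26.9% of all genes) and for 7 of 8 after CpG (16.9%). At an unadjusted p under 0.05 there were 5 of 8 after PBS (11.9% of all genes), 6 of 8 after CpG (12.7%) and 6 of 8 in the average (16.4%). At an adjusted p under 0.10 there were 5 of 8 after CpG (3.28%) and 5 of 8 in the average (6.98%). So the genes were spread to both sides of 0 rather than shifted one way, as the plot of changes with intervals shows.

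**Figure D2:**
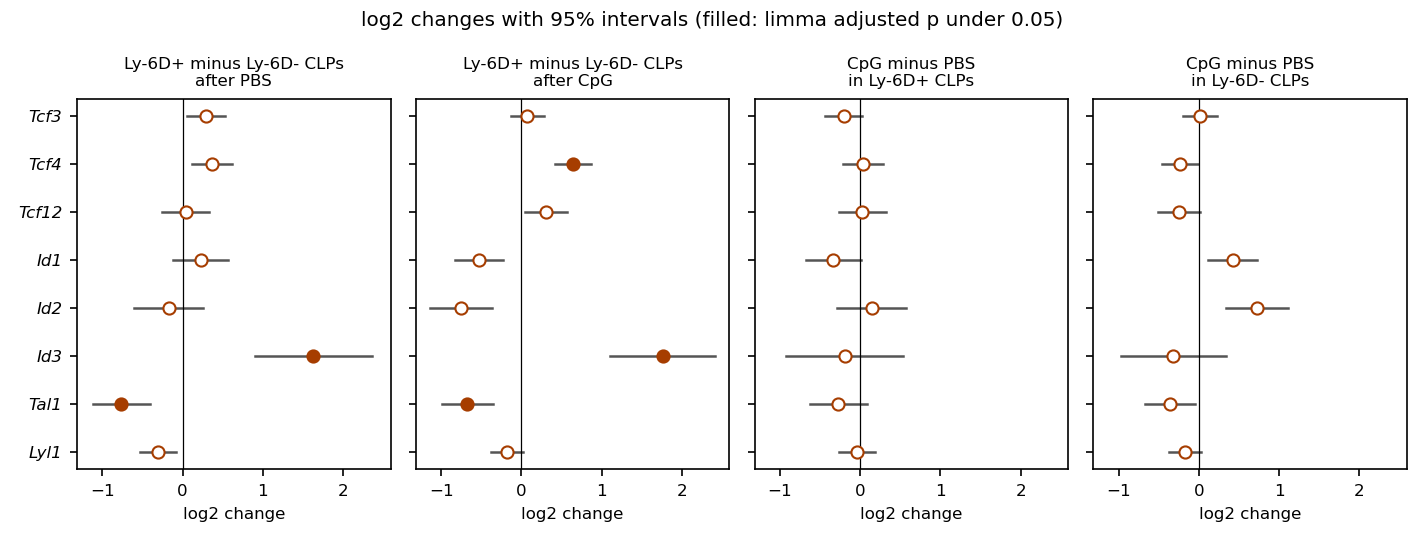
log2 changes of the 8 genes (x axis, with 95% intervals from the limma fit) in the 4 comparisons of 2 groups; filled points passed at an adjusted p below 0.05. Id3 and Tal1 are filled on opposite sides of 0 after PBS and after CpG, Tcf4 is filled after CpG alone, and no point is filled in either comparison of CpG with PBS.

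The next question was what CpG changed. By the limma test, 0 of 8 genes passed in Ly-6D+ CLPs, 0 of 8 in Ly-6D- CLPs and 0 of 8 in their average, where 0.0271%, 0.546% and 0.482% of all genes did. Those counts over all genes, 6, 121 and 107, moved widely when 1 array was left out. In Ly-6D- CLPs the count ran from 5 (without Ly-6D- CpG replicate 2) to 309 (without its replicate 3), and in the average from 6 (without Ly-6D+ PBS replicate 1) to 216 (without Ly-6D- CpG replicate 3). Both stayed within 1.5 times only without Ly-6D+ CpG replicate 3 (94 and 82). In Ly-6D+ CLPs it ran from 4 to 16. At an unadjusted p under 0.05 there were 0 of 8 genes in Ly-6D+ CLPs (6.51% of all genes), 4 of 8 in Ly-6D- CLPs (12.0%) and 2 of 8 in the average (11.3%). The arrays of CpG and PBS did not overlap for 2 of 8 genes in Ly-6D+ CLPs (20.4% of all genes) and for 6 of 8 in Ly-6D- CLPs (15.7%). The 4 genes with small unadjusted p in Ly-6D- CLPs were Id2 and Id1, higher after CpG, and Tcf4 and Tal1, lower. Id2 alone of the 8 passed in Ly-6D- CLPs (adjusted p = 0.0409) once limma fitted a variance trend robustly. The CpG comparison in Ly-6D- CLPs and the comparison of populations after PBS share the Ly-6D- PBS arrays.

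Id2 had the largest CpG change of the 8 genes in Ly-6D- CLPs. It was at 7.35, 7.28 and 7.19 after PBS and at 8.41, 8.004 and 7.59 after CpG. Every CpG array was above every PBS array, and CpG replicate 1 was farthest away. The mean was 1.65-fold higher (log2 0.73, SE 0.17, interval 0.34 to 1.11, limma adjusted p = 0.110), which did not pass. Without Ly-6D- CpG replicate 3 it was 0.93 and passed (adjusted p = 0.0160). In Ly-6D+ CLPs, Id2 was at 7.02 and 7.18 after PBS and at 7.39, 7.20 and 7.15 after CpG, with overlap (log2 0.15, SE 0.19, interval -0.29 to 0.58, adjusted p = 0.974). Averaged over both populations the change was 0.44 (SE 0.13, adjusted p = 0.216), or 0.54 and past the test (0.0395) without Ly-6D- CpG replicate 3. The difference of the CpG changes, -0.58 (SE 0.26, adjusted p = 0.783), did not pass either.

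Some markers of myeloid cells were higher after CpG in the Ly-6D- arrays where Id2 was, and in Ly-6D+ arrays too. Of 18 measured granulocyte and monocyte genes, F13a1 (log2 1.81), Ccr2 (1.57) and Ly6c2 (1.09) rose with CpG in Ly-6D- CLPs, 0 fell, and 0.302% of all genes rose. By direction alone 12 of the 18 were higher and 6 lower, with a median of 0.19 against -0.0006 over all genes. Csf3r was lower in every CpG array (6.98 to 7.47) than in any PBS array (7.75 to 7.78) of these cells and did not pass. With 1 array left out, F13a1 and Ccr2 passed in 9 of 11 fits each (failing without Ly-6D- CpG replicate 2 or PBS replicate 3) and Ly6c2 in 3 (those without Ly-6D- CpG replicate 3 or replicate 2 or 3 of Ly-6D+ CpG). The mean log2 level of the list was 9.26, 9.17 and 8.86 in CpG replicates 1, 2 and 3 of these cells, against 8.60 to 8.82 in their PBS arrays and 7.91 to 8.42 in Ly-6D+ arrays. Id2 was highest in the CpG array where this mean was highest and lowest where it was lowest. F13a1, Ccr2 and Ly6c2 were also higher in every CpG array than in any PBS array of Ly-6D+ CLPs, where Id2 overlapped. There F13a1 was at 5.47 to 5.63 after CpG and 4.74 to 4.75 after PBS, and Ccr2 at 6.64 to 6.76 and 5.71 to 5.85. Of the 18 genes 0 passed there, with 11 higher and 7 lower. Averaged over both populations, F13a1 and Ccr2 rose and 0 fell, where 0.280% of all genes rose. The part of these markers in the Id2 result was not tested. Of the 15 measured NK and innate lymphoid genes, which need Id2 for their cells to develop, 0 passed in Ly-6D- CLPs. That list's mean was 5.10 to 5.22 after CpG and 5.02 to 5.09 after PBS. In Ly-6D+ CLPs the list's mean was 5.16 to 5.39 after CpG and 5.09 to 5.19 after PBS. Its NK receptor genes differed: over all arrays Ncr1 (3.02 to 3.50) and Klrb1c (2.71 to 3.66) lay below the array medians, while Klrk1 (4.75 to 7.36) and Klrd1 (7.22 to 9.93) lay above them. Klrk1 was higher in every CpG array than in any PBS array of Ly-6D- CLPs (1.31, SE 0.35, limma adjusted p = 0.146) and did not pass. The same held in Ly-6D+ CLPs (6.55 to 7.36 after CpG, 5.68 to 6.28 after PBS), also without passing.

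Id1 ranged from 3.65 to 4.49, close to the array medians. In Ly-6D- CLPs it was at 3.65, 4.15 and 4.12 after PBS and at 4.28, 4.49 and 4.40 after CpG. In Ly-6D+ CLPs it was at 4.15 and 4.24 after PBS and at 3.99, 3.78 and 3.81 after CpG. The CpG arrays were all above the PBS arrays in one population and all below them in the other. The changes were 0.42 in Ly-6D- CLPs (SE 0.14, interval 0.11 to 0.72, limma adjusted p = 0.241) and -0.34 in Ly-6D+ CLPs (SE 0.15, interval -0.68 to 0.00410, adjusted p = 0.774). Their difference was -0.75 (SE 0.21, interval -1.21 to -0.30, unadjusted p = 0.00411, adjusted p = 0.622) and did not pass, and 0 of all 22180 genes passed that test. At an unadjusted p under 0.05 there were 2 of the 8, Id1 and Id2, and 6.37% of all genes.

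For the E proteins, the CpG change in Ly-6D- CLPs was -0.24 for Tcf4 (SE 0.10, interval -0.47 to -0.02, limma adjusted p = 0.374). It was -0.25 for Tcf12 (SE 0.12, interval -0.51 to 0.01, adjusted p = 0.450) and 0.01 for Tcf3 (SE 0.10, interval -0.20 to 0.22, adjusted p = 0.982). In Ly-6D+ CLPs the changes were 0.04 for Tcf4 (interval -0.21 to 0.29), 0.03 for Tcf12 (interval -0.27 to 0.32) and -0.21 for Tcf3 (interval -0.44 to 0.03). Of these 6 intervals none reached below -0.51 or above 0.32. The Id3 value was -0.32 in Ly-6D- CLPs (interval -0.97 to 0.33) and -0.19 in Ly-6D+ CLPs (interval -0.92 to 0.54), and its arrays spread more than those of the E proteins. The Tal1 value was -0.36 in Ly-6D- CLPs (interval -0.68 to -0.05, adjusted p = 0.340) and -0.27 in Ly-6D+ CLPs (interval -0.63 to 0.08, adjusted p = 0.855), and neither passed. For Lyl1 it was -0.17 in Ly-6D- CLPs (interval -0.37 to 0.03) and -0.04 in Ly-6D+ CLPs (interval -0.26 to 0.18).

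The balance of E-protein to Id transcripts was described per array as the mean of Tcf3, Tcf4 and Tcf12 minus the mean of Id1, Id2 and Id3, each gene taken relative to the mean of its 4 group means. It is a summary of chosen genes and has no test. Ly-6D- CLPs after PBS had the highest balance, 0.25 ± 0.04 (SD, n = 3), with arrays from 0.22 to 0.29. It was 0.00289 ± 0.12 (SD, n = 3) in the Ly-6D+ CpG group, -0.08 ± 0.06 (SD, n = 2) in the Ly-6D+ PBS group and -0.18 ± 0.13 (SD, n = 3) in the Ly-6D- CpG group. The 3 Ly-6D- PBS arrays lay above all 8 others, which reached 0.12 at most, and those 3 groups overlapped. With CpG the balance differed by -0.43 in Ly-6D- CLPs and by 0.08 in Ly-6D+ CLPs. With 1 array left out these ran from -0.51 to -0.39 and from 0.02 to 0.14, and with the median of genes they were -0.64 and 0.19.

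**Figure D3:**
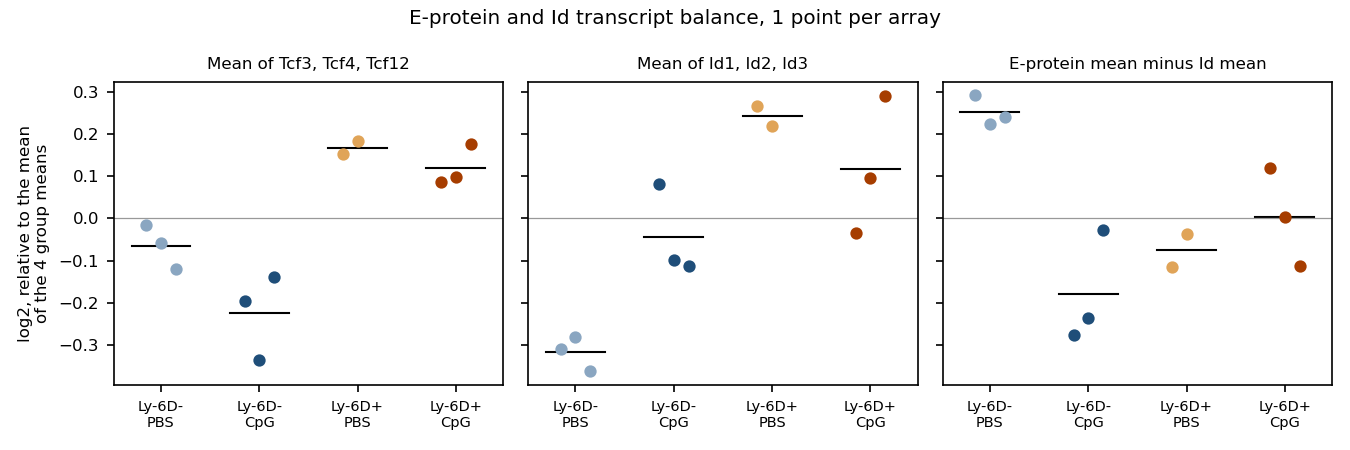
Mean log2 level of the 3 E-protein genes, of the 3 Id genes, and their difference (y axis, relative to the mean of the 4 group means) in the 4 groups (x axis); each point is 1 array and each line a group mean. The E-protein mean is higher in all Ly-6D+ arrays (0.09 to 0.18) than in all Ly-6D- arrays (-0.34 to -0.02), and the difference is highest in the Ly-6D- PBS arrays.

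Both sides of the balance differed between groups. The E-protein mean was 0.17 (PBS) and 0.12 (CpG) in Ly-6D+ CLPs, against -0.06 and -0.22 in the Ly-6D- fraction. The Id mean was 0.24 and 0.12 in the Ly-6D+ fraction, against -0.32 and -0.04 in the Ly-6D- fraction. In Ly-6D+ CLPs higher E-protein values stood beside a higher Id mean. After PBS, Id3 was higher there by 1.63 and Id1 by 0.23, and Id2 differed by -0.17. After CpG, Id3 alone was higher (1.76), with Id1 at -0.53 and Id2 at -0.75. Each E protein was therefore also set against each inhibitor, giving 9 pairs. Between populations after PBS, 5 pairs shifted toward the E protein and 4 toward the inhibitor, from -1.59 (Tcf12 over Id3) to 0.54 (Tcf4 over Id2). After CpG the shifts ran from -1.69 (Tcf3 over Id3) to 1.40 (Tcf4 over Id2), 6 toward the E protein and 3, those with Id3, toward the inhibitor. With CpG in Ly-6D- CLPs, 6 pairs shifted toward the inhibitor, led by Tcf12 and Tcf4 over Id2 (-0.97 each), and the 3 pairs with Id3 shifted toward the E protein. The balance thus depended on which inhibitor was set against the E proteins. With the median of genes in place of the mean, the difference between populations averaged over treatments turned from -0.07 to 0.30.

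Known E-protein targets of early B and lymphoid development were listed to set the factors beside them. Some genes stand in more than 1 list, such as Hes1 and Bcl11a. Of 22 measured targets, 16 were higher in Ly-6D+ CLPs and 1, Gfi1, was lower (averaged over treatments, limma), where 2.37% and 2.22% of all genes were. Their median difference was 0.93, against -0.0048 over all genes. The early B-cell factor Ebf1 was higher by 3.75 (SE 0.13, adjusted p = 1.13e-07), Pax5, which commits cells to the B lineage, by 2.55, and Foxo1, which acts with Ebf1, by 1.44. The recombinase gene Rag2 differed by 0.55 (adjusted p = 0.00238). Dntt (0.03, adjusted p = 0.893) and Notch1 (0.13, adjusted p = 0.680) did not pass. In the same comparison the 3 E-protein genes differed by 0.18 (Tcf3), 0.51 (Tcf4) and 0.18 (Tcf12). Many listed targets, such as Ebf1 and Pax5, are B-lineage genes, and the sort was on a protein that appears with the turn to that lineage. The part of the sort, or of the E proteins, in the target differences was not tested.

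With CpG, averaged over both populations, 3 of the 22 targets fell and 0 rose, where 0.203% of all genes fell. These were the coactivator gene Pou2af1 (-1.37), the surrogate light chain gene Vpreb3 (-1.06) and Rag2 (-0.45, SE 0.08, adjusted p = 0.0469). The median was -0.37, against 0.0018 over all genes, and 18 of 22 were lower, where 50.5% of all genes lay above 0. Of the same 22, Rag2 (-0.75) and Il7r (-0.81), the receptor gene for IL-7, fell in Ly-6D- CLPs, where 0.243% of all genes fell, and 0 passed in Ly-6D+ CLPs. The median was -0.34 in each population. The myeloid markers F13a1, Ccr2 and Ly6c2 rose in the same Ly-6D- CpG arrays and were higher, without passing, in the Ly-6D+ CpG arrays. Their part in the fall of the targets was not tested. These calls changed with single arrays. With 1 array left out, between 0 and 8 targets passed in the average and between 0 and 8 in Ly-6D- CLPs. In the average, Vpreb3 passed in 9 of 11 such fits, failing without either Ly-6D+ PBS array. Pou2af1 passed in 3, when the array left out was Ly-6D+ CpG replicate 1 or the 2nd or 3rd replicate of Ly-6D- CpG, and Rag2 in 1, that without Ly-6D- CpG replicate 3. In Ly-6D- CLPs Rag2 passed in 6 of 11, failing without CpG replicate 1 or 2 or any PBS array of these cells. Il7r passed in 3, those without Ly-6D- CpG replicate 3 or replicate 2 or 3 of Ly-6D+ CpG. Ebf1 was at -0.72 (adjusted p = 0.112) in Ly-6D- CLPs and -0.51 (adjusted p = 0.669) in Ly-6D+ CLPs. The plot of target genes shows the 2 directions side by side.

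**Figure D4:**
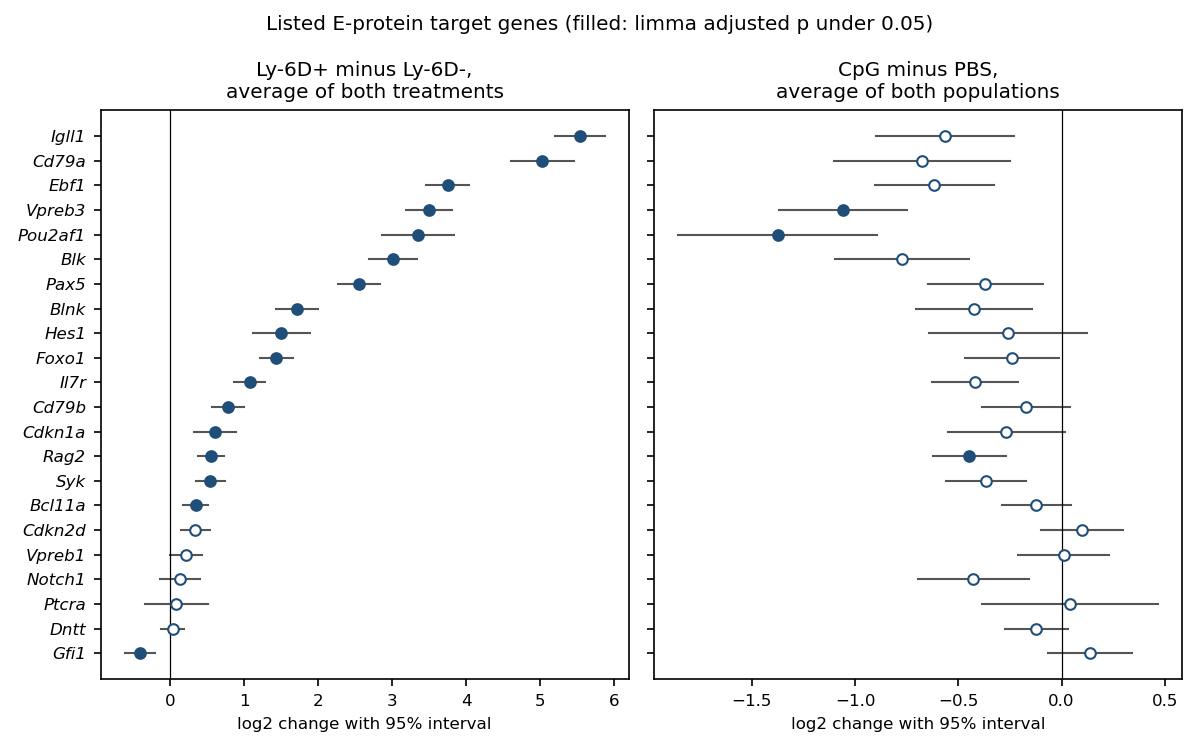
log2 changes with 95% intervals (x axis) of the 22 measured E-protein target genes (y axis, ordered by the left panel) between populations and with CpG; filled points passed at a limma adjusted p below 0.05. On the left 16 genes are filled above 0 and Gfi1 below it, and on the right Vpreb3, Pou2af1 and Rag2 are filled below 0.

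Partners of Tal1 and Lyl1 were set beside them. Of 15 measured members of their complexes, Gata2 (-1.46, adjusted p = 6.19e-04 by limma), a stem and progenitor factor, and Lmo2 (-0.94, adjusted p = 7.24e-04), the bridge between Tal1 and its partners, were lower in Ly-6D+ CLPs, averaged over treatments, and 0 were higher, where 2.22% and 2.37% of all genes were. The list's median was 0.0129, and Cbfa2t3, a corepressor that binds E proteins, differed by 0.07 (adjusted p = 0.741). With CpG 0 of 15 passed in either population, with Gata2 at 0.77 (adjusted p = 0.579) in the Ly-6D+ and 0.0067 in the Ly-6D- fraction. Stem-cell markers were lower where Tal1 was. Of 11 measured, averaged over treatments, 9 were lower in Ly-6D+ CLPs, among them Hlf (-1.54) and Mecom (-1.34), and 0 were higher, where 2.22% and 2.37% of all genes were. Their mean level was 6.70 to 6.76 in Ly-6D- PBS arrays, 6.29 to 6.56 in Ly-6D- CpG arrays and 5.62 to 5.80 in Ly-6D+ arrays, the order of Tal1 between these groups. The erythroid and megakaryocyte list, another setting of Tal1, had a mean of 6.05 to 6.27, 5.93 to 6.01 and 5.55 to 5.94 in the same groups. Of its 9 measured genes 2 were lower in Ly-6D+ CLPs (Car2 and Gp9) and 1 higher (Tfrc), against the same shares of all genes. The part of either list in the Tal1 result was not tested.

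Plasmacytoid dendritic cell genes, listed as dependent on Tcf4, were higher in the population where Tcf4 was higher. Of 14 measured, 9 were higher in Ly-6D+ CLPs (averaged over treatments) and 0 lower, where 2.37% and 2.22% of all genes were, with a median of 0.73 against -0.0048 over all genes. Spib, a factor of B and plasmacytoid cells, was higher by 3.45 (SE 0.28, limma adjusted p = 4.19e-05) and the receptor gene Siglech by 2.86 (SE 0.08, adjusted p = 3.47e-08). Bcl11a, a factor of both lineages, was higher by 0.34 (adjusted p = 0.0281). The list's mean was 8.54 to 8.70 in Ly-6D+ arrays and 7.55 to 7.73 in Ly-6D- arrays. With CpG, Tlr7 fell in Ly-6D- CLPs (-0.75, adjusted p = 0.0300), the only one of the 14 to pass there, where 0.243% of all genes fell, and 0 passed in Ly-6D+ CLPs. It passed in 3 of 11 fits with 1 array left out, those without Ly-6D- CpG replicate 3 or replicate 2 or 3 of Ly-6D+ CpG. Tcf4 was lower after CpG in Ly-6D- CLPs (-0.24, not past the test). The list's mean there was 7.60 to 7.73 after CpG and 7.55 to 7.70 after PBS, with 6 of the 14 genes higher and 8 lower. Irf8, Tlr9 and Bst2 were higher in every CpG array than in any PBS array of these cells. Ccr9 and Cox6a2 were lower in the same way, and none of these passed. The part of plasmacytoid cells in the Tcf4 result was not tested.

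The genes most like each member over the 11 arrays were taken by Pearson correlation, as a description of arrays that share population and treatment differences. Id2 was followed most closely by Fkbp1b (r = 0.983), Slc25a24 (0.969) and Uqcrc2 (0.967), and ran most opposite to Ets1 (-0.981), a lymphoid transcription factor gene. For Id3 the closest were Ubl3 (0.963), Calcoco1 (0.959) and the B-cell adaptor gene Pik3ap1 (0.957), and the most opposite was Ifitm3 (-0.954). Tcf4 was followed by Camkv (0.964), Pml (0.961) and Gpr174 (0.958), against Mboat2 (-0.951) and the myeloid factor gene Cebpd (-0.939). Tal1 was followed by Cd63 (0.967), Il15 (0.958) and Rbpms (0.952), and was most opposite to Cltc (-0.956). Lyl1 was followed by the interferon-induced gene Oas3 (0.951) and was most opposite to Skil (-0.942), a repressor of Smad signalling. Tcf12 was followed by Tigd2 (0.962), Tcf3 by Gpr34 (0.919) and Id1 by Ptprtos (0.903). Genes with r over 0.9 numbered 104 for Id2, 84 for Id3, 70 for Tcf4, 35 for Tal1, 26 for Lyl1, 20 for Tcf12, 3 for Tcf3 and 1 for Id1.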

How the data were processed

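The deposited values are log2 expression from 11 single-colour biotin-labelled arrays, 1 per sample, made by the authors; the submitters' processing notes name Partek and RMA, without versions. Per the labels, cDNA was amplified from 5 ng of RNA and 5 µg of it was labelled. Of 41345 probe sets, the 23521 with exactly 1 symbol were used, and each of 22180 genes took its probe set with the highest mean. The 8 genes, the gene lists and the comparisons were chosen with earlier results of these data known.

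One model with a mean per group was fitted to all arrays with limma 3.58.1 in R 4.3.3 (lmFit, eBayes, 7 residual and 3.48 prior degrees of freedom), and p values were adjusted by Benjamini-Hochberg over all genes; a gene passed below 0.05. SE is moderated, and SD is between arrays. Named genes were the 8 members, listed genes that passed (up to 4 per list), a fixed set of regulators and the 3 closest and most opposite genes by correlation; some names were left out for readability, and predicted or numbered genes were passed over. The lists are described by counts and medians, without a set test; those not detailed in the report are in the closing section. The fit was tested on simulated data. Alternatives were other probe-set, filter, variance, weight, normalisation, threshold and sample choices, the replicate number as a block, and each array left out. Python 3.11.15, pandas 2.3.3 and matplotlib 3.10.9 made tables and figures.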

Additional observations from a re-analysis of the deposited data

Results flagged for a closer look

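Id1 was singled out because its CpG and PBS arrays stood apart in both populations, in opposite directions. A gap of this kind was seen for 20.4% of all genes in Ly-6D+ CLPs and for 15.7% in Ly-6D- CLPs. The share of genes with gaps in opposite directions was not counted. Id1 lay between 3.65 and 4.49, close to the array medians. All 3 Ly-6D- CpG arrays were above the Ly-6D- PBS arrays and all 3 Ly-6D+ CpG arrays were below the Ly-6D+ PBS arrays. The difference of the 2 changes was -0.75 on the log2 scale, and its test did not pass (limma adjusted p = 0.622, between 0.450 and 0.859 when 1 array was left out).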

How the results depend on the processing

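Of 165 alternatives run on the 8 changes of single genes that passed, 0 turned the sign and 30 no longer passed. Many of them could not turn the sign, since they left the log2 change as it was. These were other variance, filter, probe-set and threshold settings, fits of only the groups compared, and the loss of arrays outside the comparison. The looser threshold could not end a call either, so these counts overstate how firm the calls are. Calls between the populations after PBS and Tal1 after CpG were the least stable, and those averaged over treatments held without any 1 array. When 1 array was left out, the number of the 8 genes that passed ranged from 0 to 2 after PBS, 1 to 3 after CpG and 3 to 4 in the average of treatments. For CpG it ranged from 0 to 1 in Ly-6D- CLPs and in the average, and was 0 in Ly-6D+ CLPs and for the difference. Without 1 of the 2 Ly-6D+ PBS arrays, the lone array is assumed to vary like the other groups. The balance ranged from 0.02 to 0.14 (CpG in Ly-6D+), -0.51 to -0.39 (CpG in Ly-6D-), -0.22 to -0.15 (average), 0.45 to 0.59 (difference), -0.37 to -0.29 (after PBS), 0.13 to 0.26 (after CpG) and -0.10 to -0.03 (average of treatments). The median of genes gave 0.19, -0.64, 0.83 for the difference, -0.11, 0.72 and 0.30 in the same order without the CpG average, and the last reversed.

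A variance trend with robust estimation gave 1 gene with CpG in Ly-6D- CLPs in place of 0, and between populations 3 after PBS (Tcf4 added, adjusted p = 0.0470), 4 after CpG (Id2, 0.0228) and 5 in the average of treatments (Id2, 0.0398, and Lyl1, 0.0168). Id2 after CpG also passed with the dimmest genes left out (0.0395; Lyl1 in the average too, 0.0408), with array weights (0.0403) and with the number as a random block (0.0416), giving 4 genes each. Fitting only the groups compared gave 1 gene after PBS and 1 after CpG. Further quantile normalisation gave 1 after PBS and 4 after CpG (Id2, 0.0474). A threshold of 0.10 gave 5 after CpG and 5 in the average of treatments. The cause was not tested, other than that fewer samples enter the fit of 2 groups and that 0.10 is the looser threshold. Taking other probe sets gave no value, since each gene had 1.

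With the replicate number as a block, 1 gene passed after PBS (Id3), as Tal1 moved to -0.73 (limma adjusted p = 0.0525), and Id2 passed after CpG (0.0375) and in the average of treatments (0.0379). Deviations of same-numbered arrays of different groups correlated between -0.03 and 0.18 over 15 pairs, 12 above 0 and 2 above 0.1, against 12 of 30 above 0 for other pairs. An array correlated best with its own number in 18 of 30 cases, where 11 would fall so if numbers carried nothing. Deviations within a group sum to 0, so the other pairs are tied to the same-numbered ones and are no independent comparison. The correlations are at most a hint from the data, not the design. The labels do not say that a number marks a shared animal, and not every pair exceeded 0.1. The numbers were therefore not taken to pair samples.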

Other observations

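Genes of BMP, TGF-beta and Smad signalling, a known route to Id gene expression, were read in the same fit. With CpG, 1 of 20 measured members fell in Ly-6D- CLPs, the inhibitory Smad7 (log2 -0.67, SE 0.12, limma adjusted p = 0.0441), where 0.243% of all genes fell, and 0 passed in Ly-6D+ CLPs (Smad7 at 0.03, adjusted p = 0.992). Between populations, averaged over treatments, Skil (0.70), Smad7 (0.45) and Tgfbr1 (0.32) were higher in Ly-6D+ CLPs, and Bmpr2 (-0.54) and Eng (-0.38) were lower, where 2.37% and 2.22% of all genes were. With 1 array left out, 1 to 3 were higher and 0 to 2 lower, and Smad7 with CpG passed in 1 of 11 fits, that without Ly-6D- CpG replicate 3. Of 30 other measured bHLH genes, Hes1 (2.83-fold), Bhlha15 (1.79-fold) and Mycl (1.61-fold) were higher in Ly-6D+ CLPs and Mycn (log2 -0.71) was lower, against the same shares of all genes (1 to 3 higher and 0 to 1 lower with 1 array left out), and 0 passed with CpG in either population. Of 6 measured cofactors and modifiers of E proteins, 0 passed by limma in any comparison, and 1 did between populations in the average without Ly-6D- CpG replicate 3.

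Among the 15 NK and innate lymphoid genes, Klrd1 (1.62) and Il18r1 (0.93) were higher in Ly-6D+ CLPs, averaged over treatments, and Nfil3 (-1.31), a factor that acts upstream of Id2 in innate lymphoid development, and Tox (-0.45) were lower, where 2.37% and 2.22% of all genes were. Il18r1 rose with CpG in the average of both populations (0.80, SE 0.14, limma adjusted p = 0.0424), where 0.280% of all genes rose, and passed in 1 of 11 fits with 1 array left out, that without Ly-6D+ CpG replicate 3. Of the remaining marker lists, 1 of 7 T-cell genes was higher in Ly-6D+ CLPs (Cd8a), 2 of 9 mature B-cell and plasma-cell genes were higher (Cd22 and Sdc1), and of 9 conventional dendritic cell genes Itgax and Ccr7 were higher and Batf3 lower, against the same shares. With 1 array left out these counts higher ran from 0 to 1, 1 to 2 and 1 to 2. With CpG, averaged over both populations, Batf3 rose (0.92, passing in 1 of 11 fits with 1 array left out) and the stem-cell list's Angpt1 fell (log2 -1.01, passing in 7 of 11), where 0.280% and 0.203% of all genes rose and fell.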
